A study of Homo sapiens with 12 samples.

Results

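The regions described here are the stretches of the genome where the peak lists of the anti-HA ChIP in HepG2 and in Huh7 overlapped, and where neither anti-HOXA13 peak list held an interval. The intervals of all 4 peak lists on chromosomes 1 to 22 and X were pooled, and those overlapping by 1 bp or more were merged into 140394 regions. Of these, 2255 held an interval of both anti-HA lists and of no anti-HOXA13 list. The peak calls themselves therefore chose the regions, and their folds and significance values are given as a description, with no test.

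HepG2 and Huh7 are human liver cancer cell lines. The tagged cells of each line were stably transfected and carried HOXA13 with an HA epitope, a short peptide that a tag antibody recognises, and they were precipitated with anti-HA. The anti-HOXA13 precipitations, used here only for the absence that the rule asks for, came from untagged HepG2 and untagged Huh7 cells. Each ChIP was set against an input, sonicated chromatin kept before precipitation, of the same cells, and each condition had 1 library. Neither the promoter of the tagged gene nor the number of clones is given in the sources used here. No anti-HA precipitation of untagged cells was used here, and the IgG libraries were not analysed here. Signal from the tagged protein and signal from chromatin that comes down without it therefore cannot be told apart at a region.

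HOXA13 belongs to the most 5′ group of HOX homeodomain transcription factors, which pattern the distal limb and the hindgut and urogenital tract in the embryo and bind AT-rich DNA. It is little expressed in normal adult liver. In ChIP-seq, DNA fragments crosslinked to the precipitated protein pile up over its binding sites, and the summit of a peak is the base where that pile is highest. Chromatin that is open or present in many copies also gathers fragments in the input, so the pile is always read against it.

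The anti-HA list of HepG2 held 34562 intervals on these chromosomes and that of Huh7 held 28796. The regions took up 2271 of the HepG2 intervals, a share of 6.57% (95% exact binomial interval 6.31 to 6.84), and 2331 of the Huh7 intervals, a share of 8.09% (7.78 to 8.42). The anti-HOXA13 lists held 71590 intervals in HepG2 and 10404 in Huh7. The labels state 50 M reads (M, 1e6) per sample. The lowest number of fragments expected from input was 2.62 in the HepG2 anti-HA list and 2.61 in the Huh7 list, and the shortest interval was 135 bp in HepG2 and 114 bp in Huh7. Depth and fragment length were not compared further, so numbers of fragments are read within a line, against its input. Coordinates are GRCh37, 1-based. No sequence or gene annotation of that build was used here, so no gene is named at a region.

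The regions stood higher over input in HepG2 than in Huh7. Fold over input is the number of ChIP fragments at the summit divided by the number expected from input, with 1 added to both. In HepG2 the fold ran from 1.47 to 31.1 with a median of 3.01 (2.95 to 3.04) and quartiles of 2.43 and 4.29. In Huh7 it ran from 1.37 to 6.09 with a median of 2.63 (2.59 to 2.65) and quartiles of 2.25 and 3.05. Over all intervals of the lists the medians were 2.83 in HepG2 and 2.57 in Huh7, so the typical region lay only a little above the typical interval in either line. The fold was the higher one in HepG2 at 1498 of the 2255 regions, or 66.4% (64.4 to 68.4).

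High folds were found mostly in HepG2. A fold of 5 or more was reached by 430 regions in HepG2, or 19.1% (17.5 to 20.8), where 11% of all HepG2 intervals reached it. In Huh7 it was reached by 13 regions, or 0.576% (0.307 to 0.984), where 0.0764% of all Huh7 intervals, 22 in number, reached it. Both lines reached it at 6 regions. A fold of 10 or more was reached by 161 regions in HepG2 and by 0 in Huh7. The peak calls of the same lists chose the regions, and the interval of highest fold was kept where a list had several. These shares are therefore not evidence that the regions differ from other intervals.

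**Figure D1:**
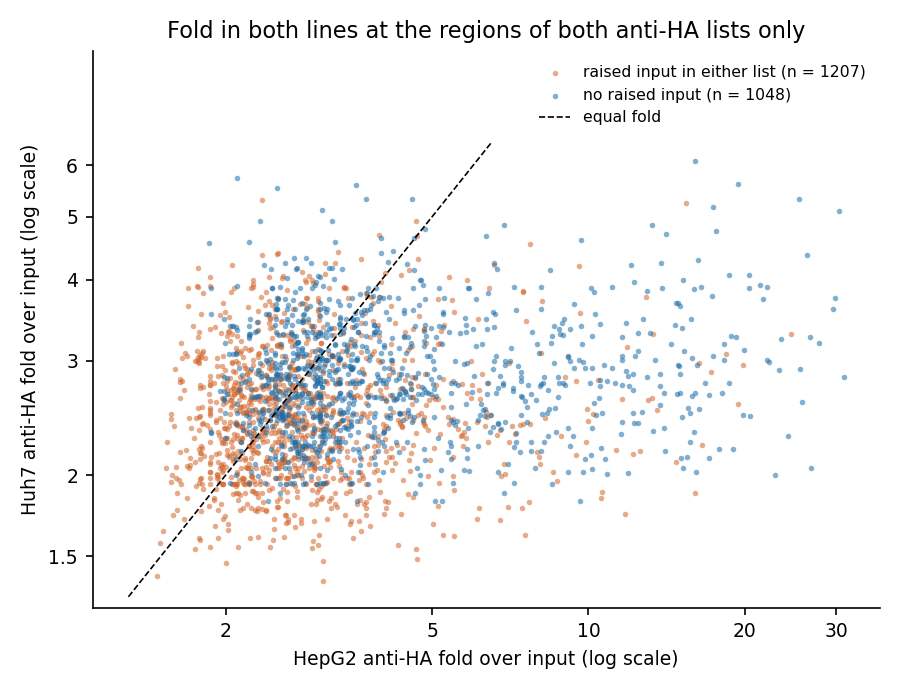
Fold over input at each of the 2255 regions, HepG2 anti-HA on the horizontal axis and Huh7 anti-HA on the vertical axis, both on log scales, with 1 point per region coloured by whether input was raised in either list. The points spread from 1.47 to 31.1 in HepG2 but from 1.37 to 6.09 in Huh7, and the regions above 10-fold in HepG2 lie to the right of the line of equal fold.

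The authors' deposited significance told the same lines apart. A −log10 q of 5 or more in HepG2 was reached by 913 regions, or 40.5% (38.5 to 42.5), against 21.4% of all HepG2 intervals. In Huh7 it was reached by 67 regions, or 2.97% (2.31 to 3.76), against 0.396% of all Huh7 intervals. Both lists reached it at 52 regions, or 2.31% (1.73 to 3.01). At the looser limit, q of at most 0.05, HepG2 held 1720 regions, or 76.3%, against 51% of its intervals, and Huh7 held 619, or 27.5%, against 6.66% of its intervals. Both lists met that limit at 516 regions, or 22.9% (21.2 to 24.7), and neither met it at 432.

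The number of fragments behind these values was small. In HepG2 the median region had 27 ChIP fragments at its summit, from 7 to 231, where 7.57 were expected from input. In Huh7 the median was 17 fragments, from 7 to 170, where 5.43 were expected. Over all intervals the medians were 13 fragments against 3.77 expected in HepG2, and 11 against 3.38 in Huh7. Regions thus had more fragments than the typical interval in the input as well as in the ChIP.

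The first 10 named regions were chosen by the mean of their ranks by fold in both lines. Their folds ran from 15.4 to 30.4 in HepG2, with a median of 18.5, and from 4.07 to 6.09 in Huh7, with a median of 5.14. Their summits lay between 2 and 49 bp apart, and 9 of the 10 had no raised input (defined further on). The 95% Poisson intervals of fold given with them cover the counting error of the ChIP fragments only. They hold the number expected from input fixed, and no condition had a replicate. Most regions were named for high folds, and the intervals do not allow for that choice.

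The region of the best mean rank was chr7:88020525-88021019, 495 bp wide. It held 109 HepG2 fragments at the summit where 2.62 were expected, a fold of 30.4 (25.01 to 36.6). In Huh7 it held 24 fragments where 3.89 were expected, a fold of 5.11 (3.35 to 7.5). The summits lay 22 bp apart, and the HepG2 fold was the higher of the pair. The nearest anti-HOXA13 interval of either line lay 18429 bp away.

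Next came chrX:148760662-148761174, 513 bp wide. HepG2 had 91 fragments against 2.62 expected there, a fold of 25.4 (20.5 to 31.1), and Huh7 had 25 against 3.88, a fold of 5.33 (3.52 to 7.76). Its summits lay 39 bp apart, and no anti-HOXA13 interval was found within 1489568 bp of it, the longest such gap among the named regions. The megabase that holds it, X from 148 to 149 Mb, carried 3 regions at 5-fold or more in HepG2 without raised input.

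Chromosome 5 held 3 of these 10. At chr5:82561012-82561492, HepG2 had 102 fragments against 4.31, a fold of 19.4 (15.8 to 23.5), and Huh7 had 25 against 3.63, a fold of 5.62 (3.71 to 8.19), with summits 21 bp apart. At chr5:37090345-37090932, HepG2 had 105 fragments against 3.02, a fold of 26.4 (21.6 to 31.9), and Huh7 had 37 against 7.70, a fold of 4.37 (3.11 to 5.98). The third, chr5:81682788-81683623, was the widest of the 10 at 836 bp and had 139 HepG2 fragments, a fold of 15.4 (12.97 to 18.2), but its expected 8.09 lay above the limit for raised input in HepG2. In Huh7 that region had 21 fragments against 3.19, a fold of 5.26 (3.34 to 7.91). All 3 had the higher fold in HepG2, and the first of them lay 2776 bp from an anti-HOXA13 interval.

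The highest Huh7 fold of all 2255 regions was at chr7:92838817-92839317. Huh7 had 21 fragments there where the background level of 2.61 was expected, a fold of 6.09 (3.88 to 9.17). HepG2 had 57 where its own background of 2.62 was expected, a fold of 16.03 (12.2 to 20.7). Input was thus at its floor in both lines.

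The remaining 4 of the 10 lay on chromosomes 1, 8 and 18. At chr18:9736799-9737272 the folds were 17.6 (14.1 to 21.7) in HepG2 and 4.75 (3.05 to 7.09) in Huh7, from 85 and 22 fragments. At chr1:78463642-78464194 they were 20.4 (16.5 to 24.9) and 4.07 (2.56 to 6.18), from 95 and 20 fragments, with summits 13 bp apart. One region on chromosome 8 had folds of 17.3 and 5.17 and the other had 16.3 and 4.28, with summits 31 and 2 bp apart. With the region of raised input on chromosome 5 left out, chr13:42222478-42222996 took its place, with folds of 18.6 (15.4 to 22.4) and 4.06 (2.61 to 6.06).

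The 10 regions of highest HepG2 fold and the 10 of highest Huh7 fold had 0 in common. Those of HepG2 ran from 25.6 to 31.1 there and from 2.05 to 5.11 in Huh7, with a Huh7 median of 3.23. Those of Huh7 ran from 5.26 to 6.09 there and from 2.11 to 25.4 in HepG2, with a HepG2 median of 4.15. Of the 10 of highest Huh7 fold, 4 were at 15-fold or more in HepG2, where 75 of all 2255 regions, or 3.33%, were. With 10 regions on each side an overlap of 0 says little about either set.

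The top of the HepG2 order was chr6:71558992-71559947, 956 bp wide, with 120 fragments against 2.90 and a fold of 31.1 (25.8 to 37.1). Its Huh7 summit, 1 bp away, had 15 fragments against 4.66, a fold of 2.83 (1.66 to 4.55) and a −log10 q of 0.634. The most HepG2 fragments of any region, 231 against 6.77, were at chr20:50283462-50284149, a fold of 29.9 (26.2 to 34.0). Huh7 had 18 fragments against 4.07 there, a fold of 3.75 (2.30 to 5.81), and the summits lay 7 bp apart. That region met the rule only narrowly, since an anti-HOXA13 interval lay 1 bp from it without sharing a base.

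Another pair of regions high in HepG2 had few fragments in Huh7. At chr14:63267153-63267783, HepG2 had 98 fragments, a fold of 26.8 (21.8 to 32.6), while Huh7 had 9 against 3.88, a fold of 2.05 (1.05 to 3.70), with summits 125 bp apart. At chr1:113564209-113564792, HepG2 had 136 fragments, a fold of 25.8 (21.7 to 30.5), while Huh7 had 11, a fold of 2.59 (1.40 to 4.47), and the summits lay 287 bp apart. The further ones had HepG2 folds of 29.5 at chr4:54321878-54322489, 27.8 at chr7:100539858-100540510, 26.7 at chr1:110490763-110491617 and 25.6 at chr3:186460774-186461561. Their Huh7 folds were 3.60, 3.19, 3.26 and 2.91 in the same order, of which the first 3 lay above the upper quartile of 3.05.

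The order by Huh7 fold held regions that were modest in HepG2. At chr5:1524130-1524469, Huh7 had 24 fragments against 3.36, a fold of 5.73 (3.75 to 8.41), and HepG2 had 17 against 7.55, a fold of 2.11 (1.28 to 3.30). At chr2:145222361-145222663, Huh7 had 35 against 5.43, a fold of 5.59 (3.94 to 7.72), and HepG2 had 16 against 3.77, a fold of 3.56 (2.13 to 5.65). At chr10:28591702-28592046 the Huh7 fold was 5.54 (3.45 to 8.50) and the HepG2 fold 2.52 (1.55 to 3.90). These 3 regions had the higher fold in Huh7, the line whose fold chose them. The chromosome 2 region lay 69 bp from an anti-HOXA13 interval.

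Another 3 regions of this order had Huh7 folds between 5.30 and 5.33. They were chr16:88772715-88773077, with a HepG2 fold of 4.56, chr15:32828756-32828952, with 3.73, and chr1:1167102-1167537, with 2.35. In HepG2 the last had 28 fragments against 11.3 expected, which is raised input.

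A −log10 q of 5 or more in both lists without raised input in either was met by 16 regions. The best 10 of them by mean rank spanned 6.88- to 30.4-fold in HepG2 and 3.87- to 6.09-fold in Huh7, and 7 of those 10 were already named. The other 3 were chr7:107668445-107668866, with folds of 15.9 and 3.87, chr7:51674383-51674784, with 9.67 and 4.59, and chr5:129727426-129727871, with 6.88 and 4.85. Their summits lay 1, 49 and 79 bp apart.

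The share of a list that lay in the regions differed between classes of peak height. Like the shares at 5-fold given above, these are a description only. Of the HepG2 intervals at 15-fold or more, 75 of 262 lay in the regions, or 28.6% (23.2 to 34.5). The share was 14.5% between 10- and 15-fold, 9.12% between 5- and 10-fold, 6.32% between 3- and 5-fold and 5.19% between 2- and 3-fold. Below 2-fold it was again higher, at 14.2% (12.3 to 16.2). In that lowest class 92.4% of the regions had raised input. Without intervals of raised input its share was 5.04%, and the share at 15-fold or more was 27.5%.

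Huh7 intervals followed the same order. Of those at 5-fold or more, 13 of 22 lay in the regions, or 59.1% (36.4 to 79.3). Between 4- and 5-fold it was 71 of 205, or 34.6% (28.1 to 41.6), and between 3.5- and 4-fold 17.97%. Between 2- and 3.5-fold the shares were 6.60% to 7.99%, and below 2-fold 13.6%. Higher HepG2 intervals were also wider: the median width in the regions was 571 bp at 15-fold or more and 242 bp between 2- and 3-fold. A wider interval meets more of another list, and the part of width in these shares was not tested.

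**Figure D2:**
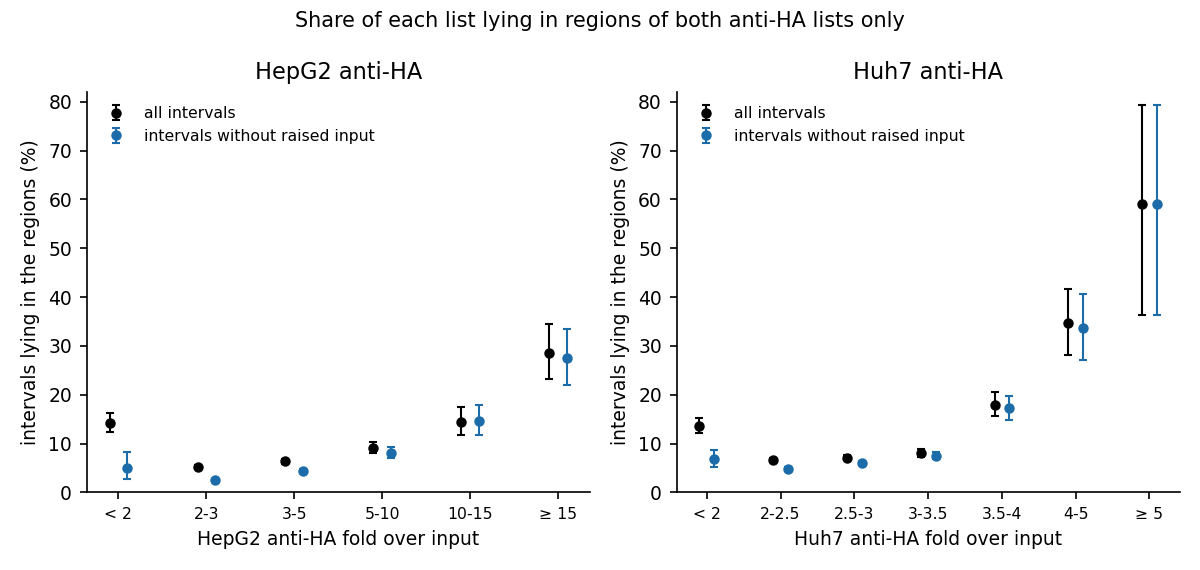
Share of each anti-HA list (vertical axis, percent of intervals) that lies in the regions, by class of fold over input (horizontal axis), for all intervals in black and for those without raised input in blue. Bars are 95% exact binomial intervals over intervals. The share is 28.6% at 15-fold or more in HepG2 and 59.1% at 5-fold or more in Huh7, and the lowest class falls from 14.2% to 5.04% in HepG2 without raised input.

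A large difference in height in one line went with a small one in the other. From the lowest HepG2 class, below 2-fold, to the highest, 15-fold or more, the median Huh7 fold went from 2.39 to 3.00. The number of Huh7 fragments at the summit, 20 in the lowest class and 16 in the highest, did not go up with it. Without raised input, which left 14 regions in the lowest class, the median Huh7 fold went only from 2.69 to 3.01. In the classes between it lay from 2.75 to 2.86 and did not rise steadily. In the other direction the median HepG2 fold was 2.64 below 2-fold in Huh7, 3.32 between 3.5- and 4-fold, 3.65 between 4- and 5-fold and 4.56 at 5-fold or more. Without raised input it was 3.02 below 2-fold and 4.56 at 5-fold or more. Of the 75 regions at 15-fold or more in HepG2, 30, or 40.0%, met q of at most 0.05 in Huh7, against 23.9% of those between 2- and 3-fold. The share did not rise steadily between them. It was 30.4% between 3- and 5-fold, 31.2% between 5- and 10-fold and 26.7% between 10- and 15-fold. Below 2-fold it was 24.3%.

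Raised input marked more of the regions than of other intervals. An interval was called raised where the number of fragments expected from input was over 3 times the lowest value of its list. This held in either list for 1207 regions, or 53.5% (51.4 to 55.6), and the share depends on the limit: it was 79.5% with 2 times and 18.6% with 5 times the lowest value. In HepG2 it held for 1094 regions, or 48.5% (46.4 to 50.6), against 16.9% of all HepG2 intervals. In Huh7 it held for 582, or 25.8% (24.0 to 27.7), against 8.1% of all Huh7 intervals. Among intervals that no other list met, 13.6% were raised in HepG2 and 5.82% in Huh7.

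Read from the input side, raised intervals lay in the regions more often. In HepG2, 18.9% (17.9 to 19.97) of the 5854 raised intervals did, against 4.05% (3.82 to 4.28) of the 28708 others. In Huh7 it was 26.4% (24.7 to 28.3) of 2333 against 6.48% (6.18 to 6.78) of 26463. Both lines raised together at 469 regions, HepG2 alone at 625 and Huh7 alone at 113. The part of input in the overlap of the lists was not tested.

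The 1048 regions without raised input kept the tall peaks. Their median fold was 3.48 in HepG2 and 2.80 in Huh7, and 311 of them, or 29.7% (26.9 to 32.5), reached 5-fold in HepG2. They held 136 of the 161 regions at 10-fold or more in HepG2 and 11 of the 13 at 5-fold or more in Huh7. Fragments at the median summit were 21 against 4.85 expected in HepG2 and 14 against 4.16 in Huh7. The number expected from input decides whether input is raised and also divides the fold. Higher folds without raised input therefore follow in part from the definitions.

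The 469 regions with raised input in both lines were low in fold and rich in fragments. Their median fold was 2.61 in HepG2 and 2.19 in Huh7, from 36 fragments against 12.4 and 25 against 10.1. A fold of 5 or more was reached by 26 of them in HepG2 and by 0 in Huh7, which allows a share of up to 0.783% (95% exact binomial interval). A −log10 q of 5 or more in both lists was met by 23 of them, or 4.90% (3.13 to 7.27), against 16, or 1.53% (0.875 to 2.47), of the regions without raised input. These 2 kinds of region thus differed in opposite ways in fold and in the share significant in both lists. Fold, p and q all use the number expected from input, which also defines raised input. A region of raised input also needs more fragments to enter a list. The contrast therefore follows in part from the definitions, and it was not tested.

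The summits of both lines lay close together at many regions. Their median distance was 69 bp (64 to 74) and the largest 736 bp, in regions with a median width of 379 bp and a largest of 1502 bp. They lay within 25 bp of each other at 506 regions, or 22.4%, within 50 bp at 895, or 39.7%, and within 100 bp at 1439, or 63.8%. The rule asks for overlap and not for shared summits, but overlap alone limits how far apart they can be, so the distance is not independent of it.

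The distance was shortest at the tallest HepG2 peaks. It was 32 bp (24 to 45) at 15-fold or more, 61.5 bp between 10- and 15-fold and 50 bp between 5- and 10-fold. It was 65 bp between 3- and 5-fold, 85 bp (76 to 91) between 2- and 3-fold and 77 bp (59 to 91) below 2-fold. The HepG2 intervals of the tallest class were at the same time the widest, 571 bp, while the Huh7 intervals there had a median width of 187 bp. Without raised input the distance in the tallest class was 31.5 bp. Regions with raised input in both lines had a median of 58 bp and regions without it 67 bp. By Huh7 fold the median distance was 67.5 to 71 bp in the classes below 4-fold. It was 56 bp (42 to 88) at the 71 regions between 4- and 5-fold and 37 bp (21 to 95) at the 13 of 5-fold or more.

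**Figure D3:**
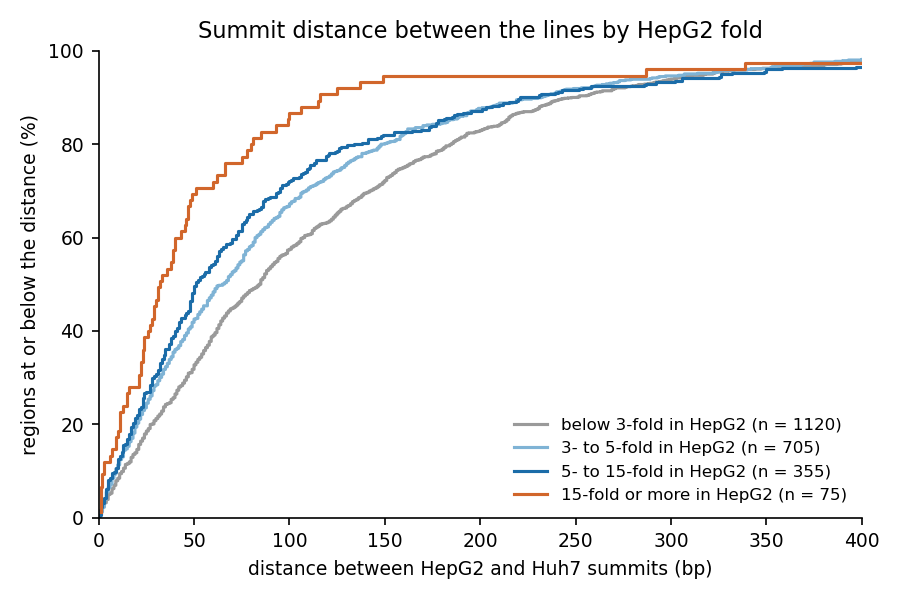
Cumulative share of regions (vertical axis, percent) by the distance between the HepG2 and Huh7 summits (horizontal axis, bp, drawn short of the largest, 736), for 4 classes of HepG2 fold. The line of the 75 regions at 15-fold or more rises first, with a median of 32 bp, and the line of those below 3-fold rises last.

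Most regions stood alone, and a few formed dense runs. The median gap between neighbours was 563764 bp, and 133 of 2232 neighbouring pairs lay within 10 kb. Runs were chained from neighbours at most 10 kb apart. Of the 225 regions in runs of 2 or more, 64.9% (58.3 to 71.1) had raised input, against 52.3% (50.1 to 54.5) of the 2030 single ones. Runs of 3 or more numbered 14 with 69 regions, and in 10 of them every region had raised input.

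The longest run held 16 regions at chr1:228746001-228782202, a span of 36.2 kb. All 16 had raised input in both lines. HepG2 summits stood on 47 to 122 fragments, median 103.5, where 25.4 to 38.8 were expected, and their fold was 1.68 to 4.07 with a median of 3.14. Huh7 summits stood on 51 to 78 fragments, median 66, where 23.1 to 40.4 were expected, and their fold was 1.47 to 2.84 with a median of 2.38. The summits of both lines lay within 25 bp of each other at 13 of the 16, with a median distance of 14 bp.

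The regions of this run were evenly spaced. The median step from summit to summit was 2231 bp in HepG2 and 2236 bp in Huh7. In HepG2, 11 of the 15 steps were between 2100 and 2400 bp, a window set after the steps were seen, 2 were double that length and 2 were others. The span also held 3 HepG2 and 5 Huh7 anti-HOXA13 intervals, which lay apart from the 16 regions by the rule. The anti-HOXA13 summits of HepG2 stood 943 to 1065 bp from the nearest of the 16 summits, with folds of 1.77 to 2.02. Those of Huh7 stood 209 to 2027 bp away, with folds of 1.65 to 1.96. Measured from edge to edge, some gaps were much shorter. An anti-HOXA13 interval of either line lay 33, 76, 28 and 33 bp from the regions starting at 228746001, 228761605, 228766095 and 228770591. The other regions of the run lay farther from one, some within 1 kb and some beyond. Of all 2255 regions, 9, or 0.399%, had such an interval within 100 bp, so parts of this run met the rule narrowly. As background, the 5S ribosomal RNA genes, transcribed by RNA polymerase III, form a tandem array of near-identical repeats on the long arm of chromosome 1. The regions were not matched to it, since no GRCh37 annotation was used. Reads from near-identical repeats cannot be assigned to a copy with certainty. If this run lies in such repeats, which was not tested, the values of its single regions are uncertain.

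The next run held 14 regions at chr1:161410530-161441136, a span of 30.6 kb, again all with raised input in both lines. HepG2 summits stood on 65 to 176 fragments where 14.6 to 64.2 were expected, a fold of 2.72 to 4.82 with a median of 3.70. Huh7 summits stood on 32 to 85 where 10.1 to 48.9 were expected, a fold of 1.55 to 3.43 with a median of 1.96. Its span held 0 anti-HOXA13 intervals of either line.

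This run had a pattern of its own. The 6 regions of most expected HepG2 fragments, 36.1 or more against at most 28.0 at the other 8, were picked out after their values were seen. Their HepG2 summits followed each other at steps of 3.94, 7.35, 3.53, 7.36 and 3.96 kb, so that short and long steps alternated. As background, transfer RNA genes, another class of RNA polymerase III genes, lie in clusters in the human genome, among them clusters on chromosomes 1, 6 and 17. Here too no annotation was matched.

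**Figure D4:**
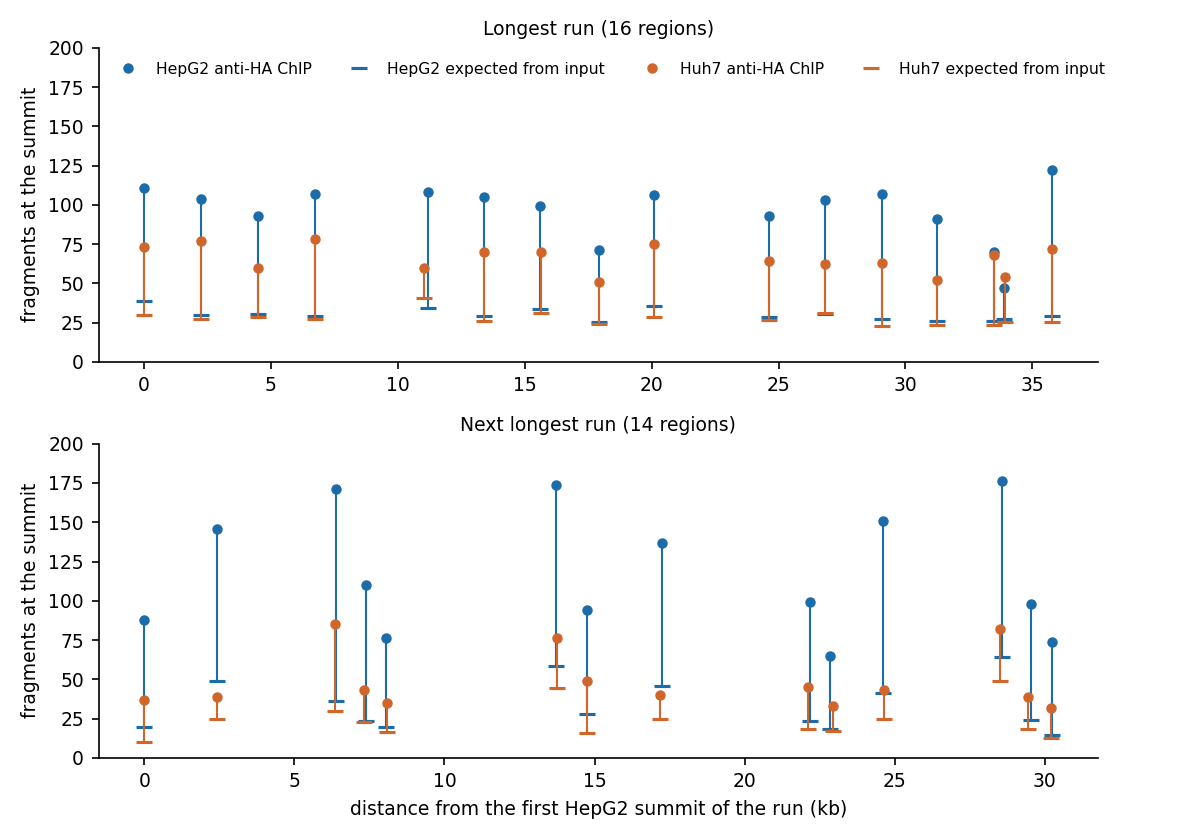
Fragments at the summit (vertical axis) of each region in the run of 16 and the run of 14, by distance in kb from the first HepG2 summit (horizontal axis). Dots are ChIP fragments and dashes the number expected from input, blue for HepG2 and orange for Huh7. In the upper panel most steps are near 2231 bp and HepG2 dots lie between 47 and 122, and in the lower panel they reach 176.

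The other runs were shorter and unlike each other. At chr11:59317873-59334009, 5 regions had 6.70 to 10.8 fragments expected in HepG2 but 23.3 to 32.6 in Huh7. Their folds were 4.54 to 7.04 in HepG2 and 1.49 to 2.35 in Huh7, from 44 to 82 and 49 to 61 fragments. The expected number thus lay farther above its floor in Huh7 than in HepG2. At chr11:110167122-110176853, 4 regions had raised input at none, a HepG2 fold of 2.74 to 15.2 with a median of 11.2, and a Huh7 fold of 2.46 to 3.03. This was the longest run without raised input.

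Beyond runs, some megabases were crowded, and those named here were picked after their values were seen. Chromosome 6 from 26 to 29 Mb held 26 regions. Input was raised there at 24 of them in HepG2 and at 0 in Huh7, with median expected fragments 5.15 times the lowest value in HepG2 and 1.78 times in Huh7. HepG2 folds ran from 2.25 to 8.14 with a median of 4.59, and Huh7 folds from 1.94 to 4.93 with a median of 2.78. Their summits lay a median of 28.5 bp apart, closer than the 69 bp of all regions.

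Chromosome 17 from 8 to 9 Mb held 10 regions and differed in its input. It was raised at 9 of them in HepG2 and at 9 in Huh7, with medians of 9.97 and 10.1 expected fragments. The median fold was 3.74 in HepG2 and 2.498 in Huh7, and the median summit distance was 21 bp. Chromosome 19 from 1 to 2 Mb held 13 regions, all with raised input. Megabases on other chromosomes were as crowded. Chromosome 8 from 145 to 146 Mb and chromosome 20 from 62 to 63 Mb held 10 regions each. Input was raised at 5 and 8 of them. Chromosome 17 from 79 to 80 Mb also held 10, all with raised input. In these 3 megabases 0 regions were at 5-fold or more in HepG2. The 311 regions at 5-fold or more in HepG2 without raised input numbered at most 3 in any megabase, reached in 5 megabases. One of these megabases, chromosome 11 from 110 to 111 Mb, holds the run without raised input described above. The crowded megabases were counted over all regions, a larger set, so the counts cannot be set against each other. Whether the 311 regions group more than their number alone would give was not tested.

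Chromosomes differed in how many regions they held for their intervals. Chromosome 19 held 14.04 regions per 100 HepG2 intervals (11.3 to 17.1) and chromosome 20 held 3.45 (2.74 to 4.28), and chromosome 2 was near it at 3.55. Per 100 Huh7 intervals the range was from 4.75 on chromosome 3 to 16.2 (11.1 to 22.4) on chromosome 21. The orders of the lines were not alike, since chromosome 20 held 10.0 per 100 Huh7 intervals. The numbers of intervals behind these ratios were uneven. Chromosome 20 had 79 regions from 2290 HepG2 and 788 Huh7 intervals. Chromosome 2 had 200 from 5641 and 2924, and chromosome 21 had 29 from 554 and 179. The ratios therefore also follow how many intervals each list has on a chromosome.

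Input was unevenly raised too. In HepG2 it was raised at 79.8% of the regions on chromosome 17, 78.6% on 16, 74.7% on 19, 74.7% on 20 and 13.2% on X. In Huh7 it was raised at 58.1% on chromosome 22, 56.6% on 19, 6.10% on 10 and at 0 of 29 on 21. Of the 83 regions on chromosome 19, 18 had no raised input, and 0 of them were at 5-fold or more in HepG2. Chromosome 7 had 134 regions, of which 86 had no raised input and 35 of these were at 5-fold or more. Over all HepG2 intervals the share at 5-fold or more without raised input was also lower on chromosome 19, at 3.72% (2.35 to 5.58), than on chromosome 7, at 14.7% (12.8 to 16.6). The median expected from input over all HepG2 intervals was 2.72 times the lowest value on chromosome 19 and 1.47 times on chromosome 7.

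**Figure D5:**
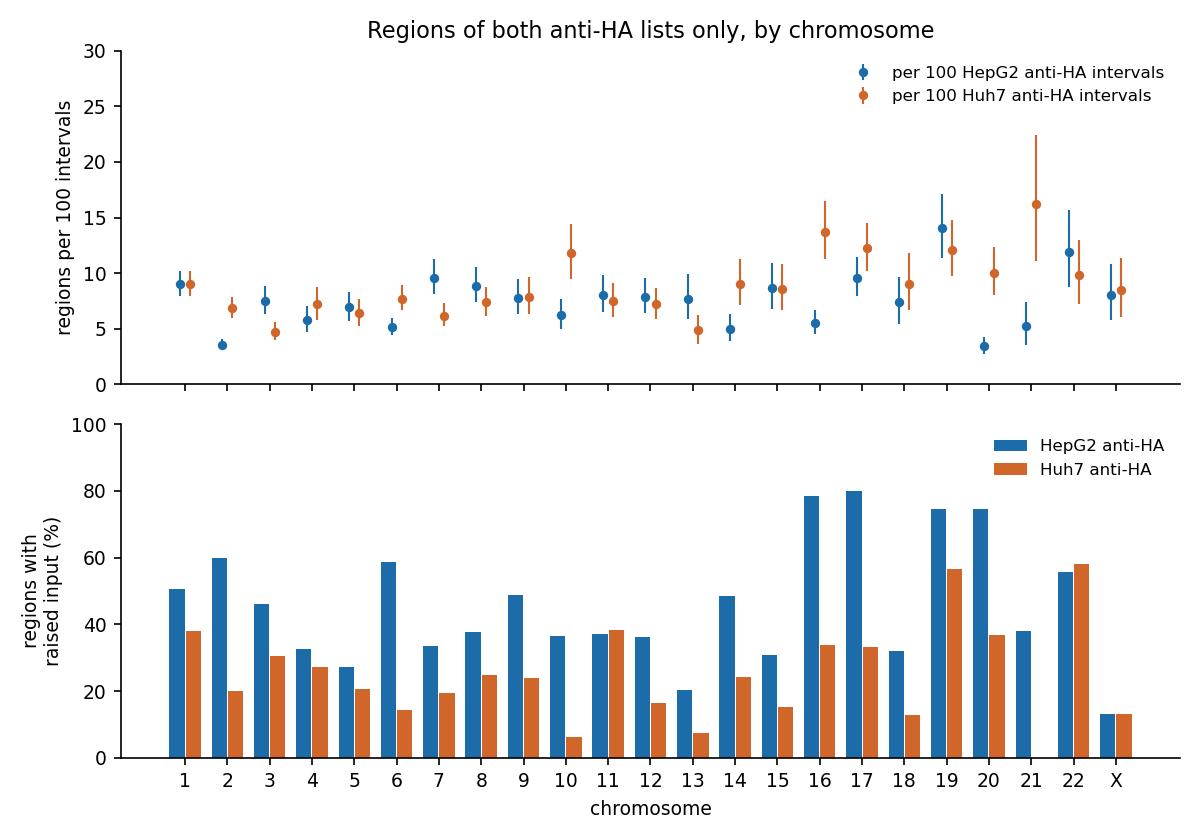
Regions per 100 intervals of each anti-HA list (upper panel, bars are 95% exact binomial intervals) and percent of regions with raised input in each line (lower panel), by chromosome, blue for HepG2 and orange for Huh7. Chromosome 20 is lowest for HepG2 at 3.45, chromosome 21 is highest for Huh7 at 16.2, and raised input in HepG2 is most frequent on chromosome 17 at 79.8%.

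The edge of the rule passed through like values. Of the 2426 merged regions with both anti-HA lists, 171 held an anti-HOXA13 interval too and were left out, so that 93.0% (91.9 to 93.9) remained. Over all merged regions the share without an anti-HOXA13 interval was 95.2% (94.9 to 95.4) of the 34517 with a HepG2 anti-HA interval and 98.0% (97.8 to 98.1) of the 28682 with a Huh7 one. Lacking such an interval was therefore usual for both anti-HA lists. The anti-HA intervals of 26 regions overlapped by 10 bp or less, with median folds of 2.76 in HepG2 and 2.48 in Huh7. Just outside, 19 pairs of anti-HA intervals missed each other by 0 to 10 bp, with medians of 2.41 and 2.61. The median distance from a region to the nearest anti-HOXA13 interval of either line was 24661 bp. Within 1 kb such an interval lay beside 65 regions, or 2.88% (2.23 to 3.66), and within 10 kb beside 482, or 21.4% (19.7 to 23.1). Of the 30592 regions held by HepG2 anti-HA alone, 8.46% had one within 1 kb and 41.9% within 10 kb. Of the 25849 held by Huh7 anti-HA alone the shares were 4.38% and 34.7%. The regions of both lists thus lay farther from anti-HOXA13 intervals than those of either list alone, whose median distances were 13938 and 17002 bp. The sets differed in other ways too. Median width was 379 bp in the regions against 191 bp and 145 bp in those of HepG2 and Huh7 anti-HA alone. Chromosome 2 held 200 of the 2255 regions but 5641 of the 34562 HepG2 anti-HA intervals. Width and chromosome were not taken into account, and no test of these differences was made.

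Most regions left out for an anti-HOXA13 interval were lower and had more raised input. The 141 with an interval of HepG2 anti-HOXA13 had median folds of 2.01 in HepG2 and 1.65 in Huh7, with raised input at 87.9% and 86.5%. The 26 with an interval of Huh7 anti-HOXA13 had medians of 3.37 and 2.39, with raised input at 61.5% and 34.6%, and the 4 in all lists had raised input throughout. Single regions among the 141 were higher than any described above, up to 38.0 in HepG2 and 12.9 in Huh7.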

How the data were processed

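Peak lists of 4 ChIP libraries were used. The submitters' processing notes name BWA and MACS2, without versions or settings. They also name GRCh38, but 14 of 23 chromosomes held an interval past the published GRCh38 end and 0 past the GRCh37 end, so coordinates were taken as GRCh37. The authors deposited for each interval a score, the fold (a ratio over input), the −log10 of p and of q for its summit, and the summit's distance from the start. The lowest deposited −log10 p was 2.00, so the lists hold weak intervals.

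Where a region held several intervals of a list, the one of highest fold was used. ChIP fragments and the number expected from input were solved from fold and p by MACS2's published formulas, for 99.9971% of HepG2 and 99.9931% of Huh7 anti-HA intervals. Shares carry exact (Clopper-Pearson) 95% intervals and medians order-statistic intervals, both for counting error over intervals only. Folds carry Poisson intervals of the ChIP fragments, with the number expected from input held fixed. With 1 library per condition, differences between lines have no replicate check and none was tested.

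Regions were named by mean rank of fold, HepG2 fold, Huh7 fold, mean rank without raised input, and −log10 q of 5 or more in both lists without raised input, 10 each, 28 in all. The regions, lists and rules were chosen with earlier results of these data known. Alternatives for overlap, thresholds, raised input, merging and list length were computed. Python 3.11.15 was used with scipy 1.17.1, numpy 2.4.6, matplotlib 3.10.9 and pandas 2.3.3, and the scripts were tested on simulated data.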

Additional observations from a re-analysis of the deposited data

Results flagged for a closer look

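Regions with both anti-HA lists and no anti-HOXA13 interval were also found on sequences that the description above does not use. The decoy sequence, which collects human sequence that the chromosomes of GRCh37 lack, held 31 of them, with a median fold of 2.06 in HepG2, at most 4.87, and 2.16 in Huh7, at most 4.30. Regions there with both anti-HA lists numbered 844, with or without an anti-HOXA13 interval. The unplaced GL000 contigs held 4, with median folds of 3.00 and 3.42, and 69 regions there held both anti-HA lists. They are listed because signal was found in data outside the chromosomes described, where chromosome Y held 0 such regions.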

How the results depend on the processing

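Across 63 recomputed values, 38 moved by less than their interval (or less than 1.5 times for the number of regions) and 25 moved by more. The number of regions, 2255, became 516 with q of at most 0.05 in both anti-HA lists, 52 with −log10 q of 5 or more, 1048 without raised input, 763 with each list held to its 10404 best intervals by q, and 1439 with summits at most 100 bp apart. Raised input in either list, 53.5%, became 79.5% with a limit of 2 times the lowest value and 18.6% with 5 times. The share at −log10 q of 5 or more in both lists, 2.31%, became 1.53% without raised input, 6.82% at equal list length and 3.41% with summits within 100 bp. In the order q of 0.05, no raised input, equal length and summits within 100 bp, the share at 5-fold or more in HepG2, 19.1%, became 26.6%, 29.7%, 34.3% and 22.3%, and the HepG2 median fold, 3.01, became 3.51, 3.48, 4.12 and 3.13. The Huh7 median, 2.63, became 3.37, 2.80 and 2.96 under the first 3. The median summit distance, 69 bp, became 63 bp with an overlap of at least 50 bp, 53 bp with q of 0.05, 77 bp with intervals up to 100 bp apart merged, and 53 bp at equal length. The stricter settings keep fewer intervals by construction. Leaving out the 35 regions in runs of 5 or more, an alternative added after seeing the data, gave 2220 regions. No paired analysis was possible because each condition had 1 library, and for the same reason no library could be left out. Few fragments in Huh7 limit what can be said of single regions there.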
